A study of Homo sapiens with 2 samples.

Results

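Transcripts of 35 genes of fatty acid oxidation and ketogenesis were compared between an empty-vector line (EV) and a PRSS35-overexpressing line of PLC, cultured liver cancer cells of human origin. PRSS35 is a secreted protein of the trypsin-like serine protease family. The genes were listed by their textbook place in the pathway and found by gene name in the tables of both libraries, also where a name stood inside a joined locus, and all 35 were found among 26225 names. With a mean of at least 1 FPKM taken as expressed, 32 of the 35 were expressed, of 11115 expressed genes in all. FPKM scales the fragments of a gene by its transcript length and by the size of the library, so levels of different genes are compared per length. The EV cells carry the genotype label WT and the PRSS35 cells the label PRSS35 over-expression, and both were made by lentiviral delivery and puromycin selection. Neither was treated. Both were kept in medium with 25 mM glucose, 4 mM glutamine, 1 mM pyruvate and 10% FBS, and the sources do not say whether serum was removed before RNA was taken. Each condition has 1 library, so no difference has a replicate check, no p-value is given, and an effect of PRSS35 and a chance difference between dishes or selected pools cannot be told apart. As RNA came from whole cultures, fewer cells with a transcript and less of it per cell cannot be told apart either.

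Long-chain fatty acids are joined to coenzyme A by acyl-CoA synthetases, carried into mitochondria by the carnitine shuttle and shortened by repeated rounds of dehydrogenation, hydration, a further oxidation and thiolysis. Peroxisomes run a parallel set of reactions on very long and branched chains and on bile acid precursors, starting with oxidases that pass electrons to oxygen in place of the electron transfer flavoprotein. In liver, the acetyl-CoA made in mitochondria can be turned into ketone bodies, and the nuclear receptor PPARA with the coactivator PPARGC1A is known to drive many of these genes in fasting.

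Many peroxisomal enzymes carry their address at the end of the coding sequence, and the 30 last coding bases of the peroxisomal members are shown for that reason, with the final codons, 9 bases, in capitals. A carboxy-terminal serine, lysine and leucine, or a close variant, is the type 1 peroxisomal targeting signal. Sequences are from GENCODE v44lift37 on GRCh37, the assembly of hg19, and exclude the stop codon.
EHHADH (chr3:184910017-184910046, minus strand): agcttggcaggctcccctagcAGTAAATTG
ACOX2 (chr3:58490954-58490983, minus strand): ccacttttacaaagttggagaTCCAAGCTA
ACOX3 (chr4:8368691-8368720, minus strand): cctgtcataggaagtctgaaaTCGAAGCTC
HSD17B4 (chr5:118877657-118877686, plus strand): cagatgattcttaaagactacGCCAAGCTC
SCP2 (chr1:53516344-53516373, plus strand): cttcagcttcagccaggcaacGCTAAGCTC
ACAA1 (chr3:38164541-38164570, minus strand): gccgctgccgtctttgaatacCCTGGGAAC
ECI2, held by both organelles (chr6:4116111-4116140, minus strand): gtgaacttcttatccagaaaaTCAAAACTG
ACAT1, mitochondrial (chr11:108018085-108018114, plus strand): ggtgcttctgccatgctaattCAGAAGCTG
ECI1, mitochondrial (chr16:2289983-2290012, minus strand): tacttagagaggctcaaagaaGAAAAAGGC

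Serine, alanine, cysteine or proline, then lysine, arginine or histidine, then leucine or methionine were counted as the signal. By this pattern, 5 of the 6 peroxisomal members carried it, and so did ECI2, which also has a mitochondrial leader. The exception was ACAA1, the peroxisomal thiolase, which is known to use an amino-terminal signal. None of the 22 mitochondrial members ended in the pattern. ACAT1 ended in lysine and leucine, but with glutamine in front of them. The pattern does not sort the wider pathway as cleanly, since 7 of 32 peroxisomal and 3 of 15 mitochondrial companion genes, listed beside the members, ended in it. Of all 18913 coding transcripts examined, 107 carried the pattern, or 0.566%.

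The libraries matched their labels. PRSS35 had 0.643 FPKM in EV (interval 0.445 to 0.841) and 1836 FPKM in PRSS35 (interval 1759 to 1912). All 7 hepatocyte markers looked at were expressed in both libraries, among them HNF4A at 41.2 and 47.7 FPKM, ALB at 4.05 and 5.21 FPKM and TTR, the lowest, at 1.56 and 1.61 FPKM. COL3A1, DCN, PTPRC and CD163, markers of fibroblasts and leukocytes, were listed at 0 in both libraries, though the COL3A1 locus was joined with others and a listed 0 can be a failed estimate. COL1A1 had 0.699 and 0.754 FPKM, CD14 was listed at 0 in EV and had 0.234 FPKM in PRSS35, endothelial markers reached at most 0.0297 FPKM, and LYZ alone among the leukocyte markers was high, at 94.0 FPKM in EV and 103.7 FPKM in PRSS35. The FPKM that the intervals imply for a single fragment had a median EV to PRSS35 ratio of 1.00 over 2945 genes. A scale shared by both libraries would also give this, so it does not measure their depth, and the fragments implied for a member could differ widely, as for ACADVL (3650 in EV and 584.6 in PRSS35). The interval printed with each FPKM is that of Cufflinks, which reaches 2 standard deviations to each side and covers error within a library only.

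Several transcripts of long-chain oxidation were abundant, and few members differed much between the libraries. A change is the log2 ratio of PRSS35 to EV after 1 FPKM was added to each value, which makes changes of weakly expressed genes look smaller than they are. Of the 32 expressed members, 26 were above 0 on this scale and 6 below, with a median of 0.17, against a median of 0.06 and 6688 genes above 0 among all 11115 expressed genes. None of the 32 was 2-fold higher in PRSS35, where 2.73% of all expressed genes were, and none was 2-fold lower, where 2.48% were. None passed 1.5-fold on this scale, although without the added FPKM SLC25A20 was 1.51 times higher and ACSL3 stood at 0.653 times its EV level, and with 0.1 FPKM added these 2 passed 1.5-fold at 0.59 and -0.61. ACSL3 also passed it after centring, at -0.61. For 12 members, or 37.5%, the interval in PRSS35 lay above that in EV without overlap, as it did for 25.2% of all expressed genes. For 3 members it lay below, as for 15.5% of all, and for 17 the intervals overlapped. After centring on the median gene, 23 members were above 0, 10 lay above by intervals, against 18.9% of all genes, and 4 below, against 20.3%. ACAD9 and ETFB were then no longer above, and ACAA1 was below.

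**Figure D1:**
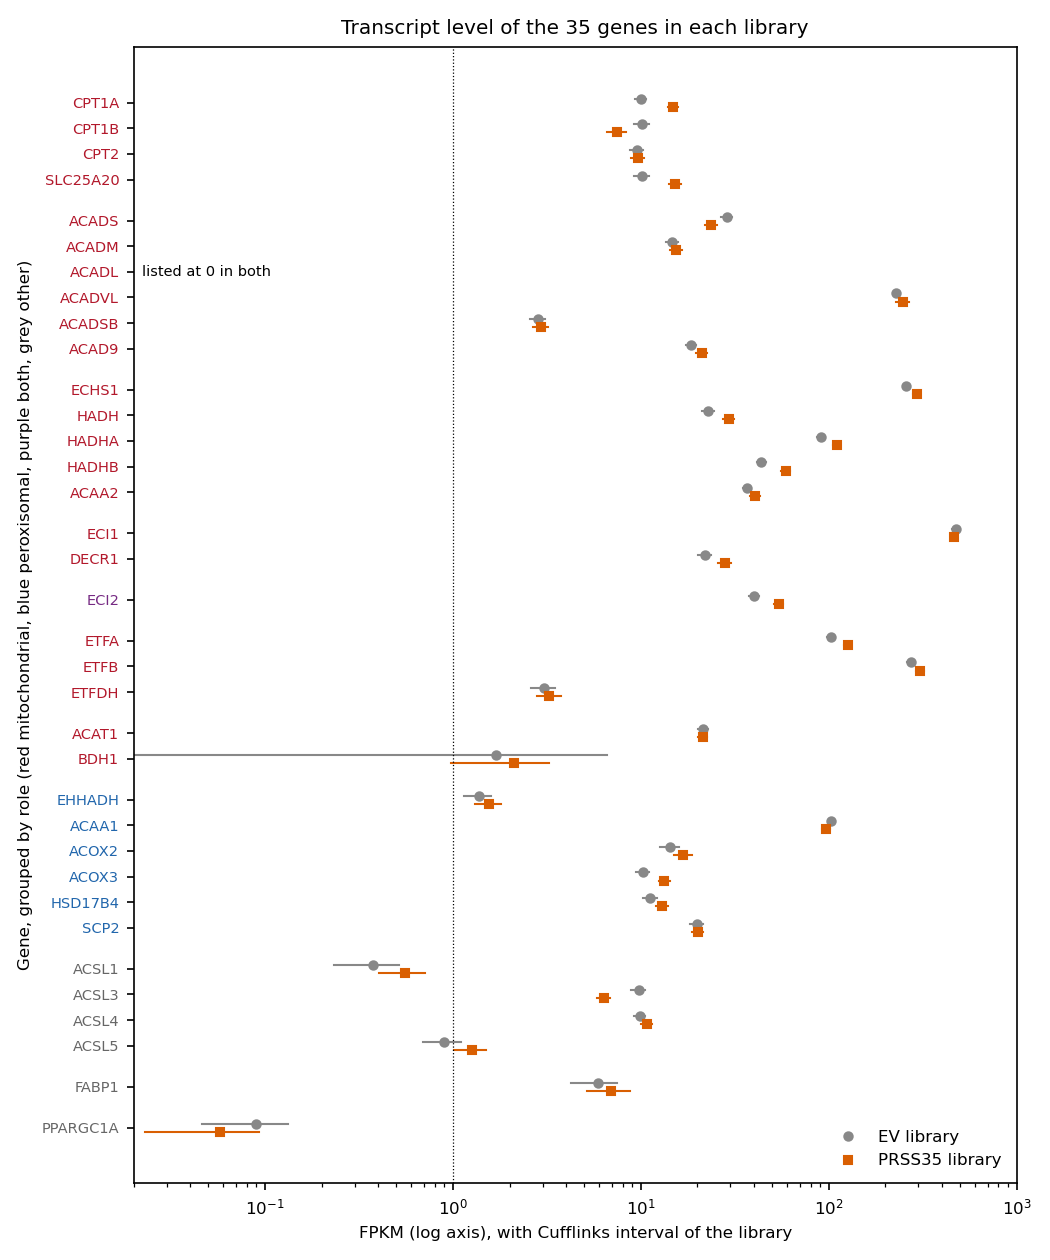
FPKM of each of the 35 genes in the EV library (grey circles) and the PRSS35 library (orange squares) on a log axis, with the Cufflinks interval of each library as a line and genes grouped by role. The dotted line marks 1 FPKM, levels run from ECI1 at 472.8 FPKM in EV down to PPARGC1A at 0.0894 FPKM, ACADL is listed at 0, and the interval of BDH1 in EV reaches 0.

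The acyl-CoA synthetases, which activate fatty acids, were led by ACSL3 and ACSL4. ACSL4, which prefers arachidonate, had 9.85 FPKM in EV (interval 9.19 to 10.5) and 10.7 FPKM in PRSS35 (interval 10.0 to 11.4). ACSL3, which sits on lipid droplets and the endoplasmic reticulum, had 9.74 FPKM in EV (interval 8.91 to 10.6) and 6.36 FPKM in PRSS35 (interval 5.85 to 6.86). The ACSL3 intervals lay apart, and its log2 change of -0.55 ± 0.15 was the lowest of all 32 members, with 4.64% of expressed genes lower still. The ratio of ACSL4 to ACSL3 was therefore 1.01 in EV and 1.69 in PRSS35. ACSL3 was assembled as a new transcript model in EV only and kept its annotated model in PRSS35, and the part of this in its difference was not tested. ACSL1, the main synthetase of normal liver, was below the expression threshold in both libraries, with 0.374 and 0.558 FPKM. ACSL5 was near it, with 0.896 FPKM in EV and 1.26 FPKM in PRSS35, and its intervals overlapped. FABP1, the fatty acid carrier of liver cytosol, had 5.88 FPKM in EV and 6.93 FPKM in PRSS35 with wide, overlapping intervals (4.26 to 7.50 and 5.14 to 8.73).

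The carnitine shuttle held the member highest in log2 change and the enzyme CPT2 with next to none. CPT1A, the liver form of the outer-membrane carnitine palmitoyltransferase that sets the pace of entry, had 10.0 FPKM in EV (interval 9.36 to 10.7) and 14.8 FPKM in PRSS35 (interval 13.9 to 15.7). SLC25A20, the carnitine-acylcarnitine exchanger of the inner membrane, had 10.1 FPKM in EV (interval 9.22 to 11.0) and 15.3 FPKM in PRSS35 (interval 14.2 to 16.4). Both were higher in PRSS35 with intervals apart, by 0.52 ± 0.12 for CPT1A and 0.55 ± 0.15 for SLC25A20, and 93.5% and 94.2% of expressed genes had a lower change. The levels of these genes stood in the same ratio in the libraries, 1.01 and 1.03 for SLC25A20 over CPT1A. SLC25A20 kept its annotated model in both libraries, while CPT1A was newly assembled in both. CPT2, which frees the acyl group on the inner side, had 9.50 FPKM in EV and 9.64 FPKM in PRSS35, a change of 0.02 ± 0.15.

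CPT1B, the muscle form of the same enzyme, was as abundant as CPT1A in EV, at 10.1 FPKM (interval 9.16 to 11.1), and lower in PRSS35, at 7.44 FPKM (interval 6.57 to 8.32). The intervals lay apart and the log2 change was -0.40 ± 0.20. The ratio of CPT1A to CPT1B thus went from 0.99 (interval 0.88 to 1.11) in EV to 1.99 (interval 1.75 to 2.27) in PRSS35. The value of CPT1B belongs to a locus joined in both libraries with CHKB, the choline kinase gene next to it, and the read-through CHKB-CPT1B, so how much of it is CPT1B cannot be told apart. CPT1C, the brain form, was not a listed member and had 0.228 FPKM in EV (interval 0 to 0.463) and 2.01 FPKM in PRSS35 (interval 1.13 to 2.89).

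**Figure D2:**
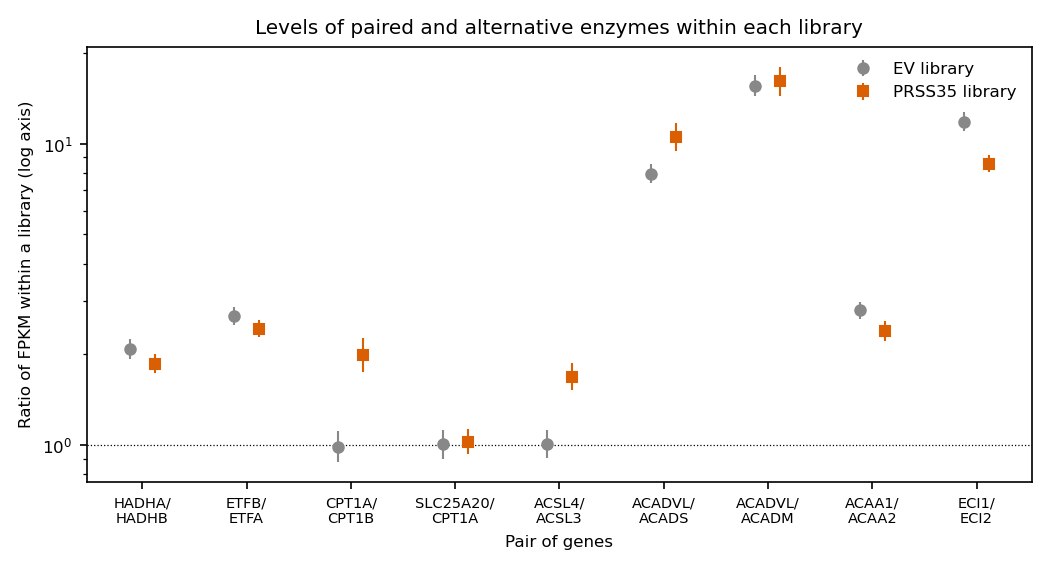
Ratio of the FPKM of paired or alternative enzymes within the EV library (grey circles) and the PRSS35 library (orange squares), on a log axis, with the interval that the Cufflinks bounds give. CPT1A over CPT1B and ACSL4 over ACSL3 stood near 1 in EV and at 1.99 and 1.69 in PRSS35, while SLC25A20 over CPT1A stood near 1 in both. The CPT1B value is that of a locus joined with CHKB in both libraries, and ACSL3 was newly assembled in EV only.

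The acyl-CoA dehydrogenases carry out the opening oxidation and divide the work by chain length. ACADVL, for very long chains, was the most abundant in both libraries, with 228.3 FPKM in EV (interval 220.7 to 235.8) and 248.4 FPKM in PRSS35 (interval 227.9 to 269.0). It exceeded ACADM, for medium chains, 15.6 times in EV and 16.1 times in PRSS35. ACADM itself had 14.7 and 15.4 FPKM, and neither gene's intervals lay apart. ACADL, for long chains, was listed at 0 in both libraries. ACADS, for short chains, was the dehydrogenase that was lower in PRSS35, with 28.7 FPKM in EV (interval 26.8 to 30.6) and 23.6 FPKM in PRSS35 (interval 22.0 to 25.3), a change of -0.27 ± 0.13. ACADVL over ACADS was accordingly 7.94 in EV and 10.5 in PRSS35. ACAD9, which also serves the assembly of respiratory complex I, had 18.5 FPKM in EV and 21.1 FPKM in PRSS35, and its intervals missed each other by 0.002 FPKM. ACADSB, for short branched chains, had 2.83 and 2.94 FPKM with overlapping intervals.

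The enzymes of the later steps were all above 0 in log2 change, 4 of the 5 with intervals apart. Of all expressed genes, 60.2% were above 0 and 25.2% lay higher by intervals. HADHA and HADHB are the subunits of the mitochondrial trifunctional protein, which hydrates, oxidises and cleaves long chains. HADHA had 91.2 FPKM in EV (interval 86.9 to 95.5) and 110.1 FPKM in PRSS35 (interval 105.0 to 115.2). HADHB had 43.8 FPKM in EV (interval 41.3 to 46.3) and 59.0 FPKM in PRSS35 (interval 55.9 to 62.2). Both were higher in PRSS35, by 0.27 ± 0.09 and 0.42 ± 0.11, and HADHA stayed the more abundant, 2.08 times HADHB in EV (interval 1.93 to 2.24) and 1.87 times in PRSS35 (interval 1.74 to 2.001). The intervals of the ratio overlapped. For shorter chains, the hydratase ECHS1 had 257.9 FPKM in EV and 293.4 FPKM in PRSS35, a change of 0.18 ± 0.07 with intervals apart. The dehydrogenase HADH had 22.9 FPKM in EV (interval 21.3 to 24.5) and 29.4 FPKM in PRSS35 (interval 27.4 to 31.3), a change of 0.35 ± 0.13 in a gene whose annotated model was kept in both libraries. The thiolase ACAA2 had 36.8 FPKM in EV and 40.6 FPKM in PRSS35, and its intervals overlapped.

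HADHA and HADHB lie head to head on chromosome 2, and sequence near their starts is shown. The start sites of their MANE Select transcripts in GENCODE v44lift37, at 26467500 on the minus strand and 26467807 on the plus strand of GRCh37, leave 306 bases between them. This holds for these transcripts only, since the annotated genes overlap, HADHA reaching to 26467540 and HADHB beginning at 26466038. The deposited loci ended at 26467594 for HADHA and began at 26467616 for HADHB, so the boxes below lie inside the deposited HADHB locus. The 250 bases before the MANE Select start of HADHB were 69.2% G or C and held the GC box GGGCGG on their minus strand at 2 places, which end 59 and 23 bases before that start. The GC box is in capitals below, read on the plus strand as its reverse complement.
HADHB side, distal box (chr2:26467731-26467760, plus strand): gaacggccctgaCCGCCCgcggggtgaggg
HADHB side, proximal box (chr2:26467767-26467796, plus strand): tctgggcaggacCCGCCCcttggtcccgca
In RefSeq promoters on GRCh38.p14, taken from 250 bases before to 50 after each start, 29 of the 35 members had an entry. Of these, 22 held GGGCGG on either strand (75.9%), against 44.6% of 27305 promoters. They included HADHA and HADHB, but also ACADS and ACSL3, which were lower in PRSS35, and ECI1 and ACAT1, whose intervals overlapped. A link between the box and the differences was not tested. CCAAT stood in 4 of the 29, those of HADH, ETFA, ACAT1 and ACSL3 (13.8%), against 35.7% of all. AGGTCA, the core hexamer of many nuclear receptor sites, stood in those of ACSL5 and FABP1 only (6.9%), against 13.9% of all. Its direct repeat with 1 base between, AGGTCANAGGTCA, which any hit also counts under AGGTCA, was found in none of the 29 and in 6 of all. These letters were searched without mismatches, and a match is no proof of a bound site. The 27305 promoters were not limited to genes expressed here, so the shares do not set the members against expressed genes.

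Auxiliary enzymes that handle double bonds included the most abundant member of all. ECI1, a mitochondrial enoyl-CoA isomerase, had 472.8 FPKM in EV and 464.9 FPKM in PRSS35, with overlapping intervals and a change of -0.02 ± 0.07. ECI2, the isomerase found in both organelles, had 40.0 FPKM in EV (interval 37.5 to 42.4) and 54.2 FPKM in PRSS35 (interval 51.2 to 57.1). The ECI2 intervals lay apart, at 0.43 ± 0.12 its change was above that of 91.3% of expressed genes, and ECI1 over ECI2 was 11.8 in EV and 8.58 in PRSS35. DECR1, the mitochondrial dienoyl-CoA reductase, had 21.8 FPKM in EV and 28.0 FPKM in PRSS35, also with intervals apart. DECR1, ECHS1, ACAA2, CPT2 and ETFDH were newly assembled in PRSS35 only. Genes of this kind had a median change of 0.17 over all 1153 expressed, against 0.01 for the 1089 assembled in EV only, and the part of the assembly in their values was not tested.

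The electron transfer flavoprotein takes the electrons of the dehydrogenases to the respiratory chain. Its subunit ETFA had 102.9 FPKM in EV (interval 98.0 to 107.8) and 126.4 FPKM in PRSS35 (interval 120.8 to 132.0). Its subunit ETFB had 275.6 FPKM in EV (interval 262.0 to 289.2) and 307.4 FPKM in PRSS35 (interval 292.5 to 322.4). The intervals of both lay apart, at 0.29 ± 0.09 for ETFA and 0.16 ± 0.10 for ETFB, and ETFB was 2.68 times ETFA in EV and 2.43 times in PRSS35. ETFA was newly assembled in EV only, and ETFB was joined with its neighbour CLDND2 in PRSS35 only. The acceptor ETFDH was far lower than either, with 3.06 FPKM in EV and 3.26 FPKM in PRSS35 and overlapping intervals.

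The members of ketone body metabolism were not seen to differ between the libraries. ACAT1, the thiolase that joins acetyl-CoA units, had 21.5 FPKM in EV (interval 20.3 to 22.7) and 21.3 FPKM in PRSS35 (interval 20.1 to 22.5), the nearest to no change of the expressed members. BDH1, which interconverts the ketone bodies, had 1.70 FPKM in EV with an interval of 0 to 6.59, and 2.11 FPKM in PRSS35 with an interval of 0.972 to 3.25, so no difference was detectable. OXCT1, a companion gene outside the 35, which is known to put ketone bodies to use outside the liver, had 0.0291 and 0.0580 FPKM. The coactivator PPARGC1A was near 0 in both libraries, with 0.0894 and 0.0578 FPKM, and its partner PPARA had 0.875 FPKM in EV (interval 0.580 to 1.17) and 1.24 FPKM in PRSS35 (interval 0.392 to 2.08).

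**Figure D3:**
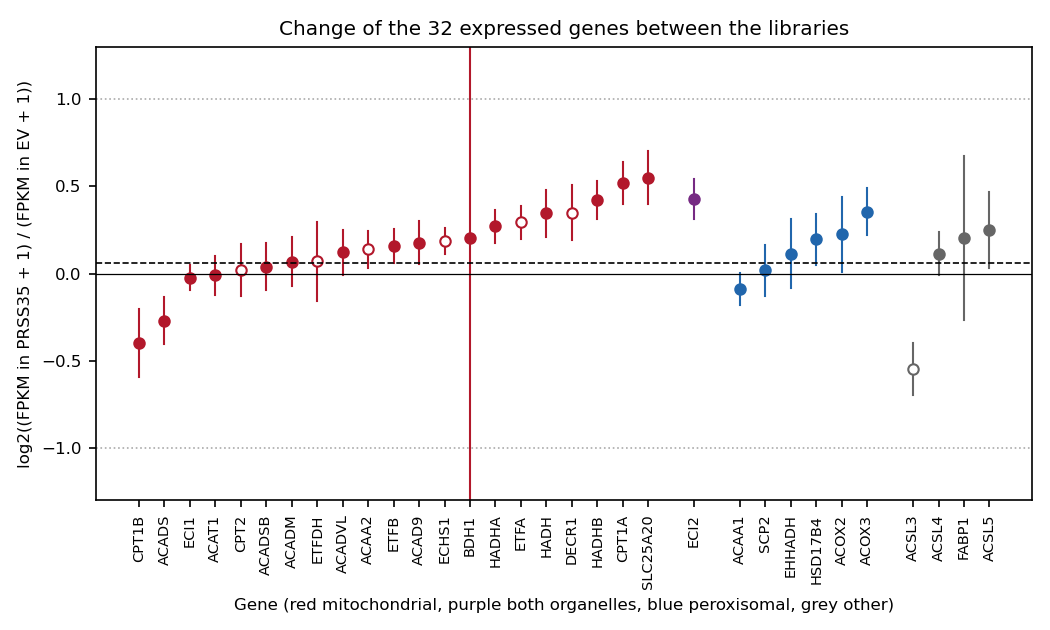
Log2 change of each of the 32 expressed genes, ordered by compartment and size, with the half-width from the Cufflinks bounds as a line. Open circles mark genes assembled in 1 library only, the dashed line the median of all expressed genes (0.06), and the dotted lines 2-fold, and no point reaches either dotted line. The line of BDH1 runs beyond the axis.

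The 6 peroxisomal enzymes ran from -0.09 to 0.36 in log2 change. ACOX3, an oxidase of branched chains, was the only 1 of the 6 with intervals apart, at 10.2 FPKM in EV (interval 9.44 to 11.0) and 13.4 FPKM in PRSS35 (interval 12.4 to 14.3), a change of 0.36 ± 0.14. ACOX2, the oxidase of bile acid precursors, had 14.3 FPKM in EV (interval 12.6 to 15.9) and 16.9 FPKM in PRSS35 (interval 15.03 to 18.7), which overlapped. The thiolase ACAA1 was the most abundant of the 6 and the only 1 below 0 in log2 change, with 103.2 FPKM in EV (interval 98.6 to 107.8) and 97.0 FPKM in PRSS35 (interval 92.5 to 101.4). Relative to the mitochondrial thiolase ACAA2 it stood at 2.80 in EV and 2.39 in PRSS35. The bifunctional enzyme HSD17B4 had 11.2 and 13.0 FPKM, the thiolase and sterol carrier SCP2 had 19.8 and 20.1 FPKM, and the bifunctional EHHADH, a well-known PPARA target, was scarcely expressed, with 1.37 and 1.56 FPKM. The intervals of each of these 3 overlapped.

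The mitochondrial and peroxisomal members had nearly the same median change. Of the 21 expressed mitochondrial members, 17 were above 0 and the median was 0.16, and of the 6 peroxisomal members 5 were above 0 with a median of 0.15. The medians differed by 0.003. By intervals, 10 mitochondrial members lay higher and 2 lower in PRSS35, and 1 peroxisomal member higher and 0 lower. These were 47.6% and 9.52% of the mitochondrial and 16.7% and 0% of the peroxisomal members, against 25.2% and 15.5% of all expressed genes. After centring, 8 mitochondrial members lay higher and 2 lower, and 1 peroxisomal member higher and 1 lower, against 18.9% and 20.3% of all. The median interval half-width in log2 change was 0.13 for the mitochondrial and 0.15 for the peroxisomal members, so the latter were measured slightly less finely. In level, the mitochondrial median was 1.71 times the peroxisomal in EV and 1.56 times in PRSS35. The summed FPKM was 1685 and 1845 for the mitochondrial and 160.1 and 161.8 for the peroxisomal members, a ratio of 10.5 in EV and 11.4 in PRSS35. ECI2 was left out of both lists. ECI2 counted as peroxisomal gave a difference of -0.04.

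Further enzymes of both organelles, which were listed beside the members, had similar medians. Of 13 other expressed mitochondrial enzymes, 11 were above 0 with a median of 0.19, and 5 lay higher with intervals apart (38.5%, against 25.2% of all expressed genes) and 0 lower (against 15.5%). Of 16 other peroxisomal enzymes and transporters, 13 were above 0 with a median of 0.22, and 9 lay higher (56.2%) and 2 lower (12.5%). Of 14 peroxins, which build peroxisomes, 11 were above 0 with a median of 0.19, and 5 lay higher (35.7%) and 1 lower (7.14%). With members and these enzymes together, the median was 0.17 over 34 mitochondrial genes and 0.21 over 22 peroxisomal genes.

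**Figure D4:**
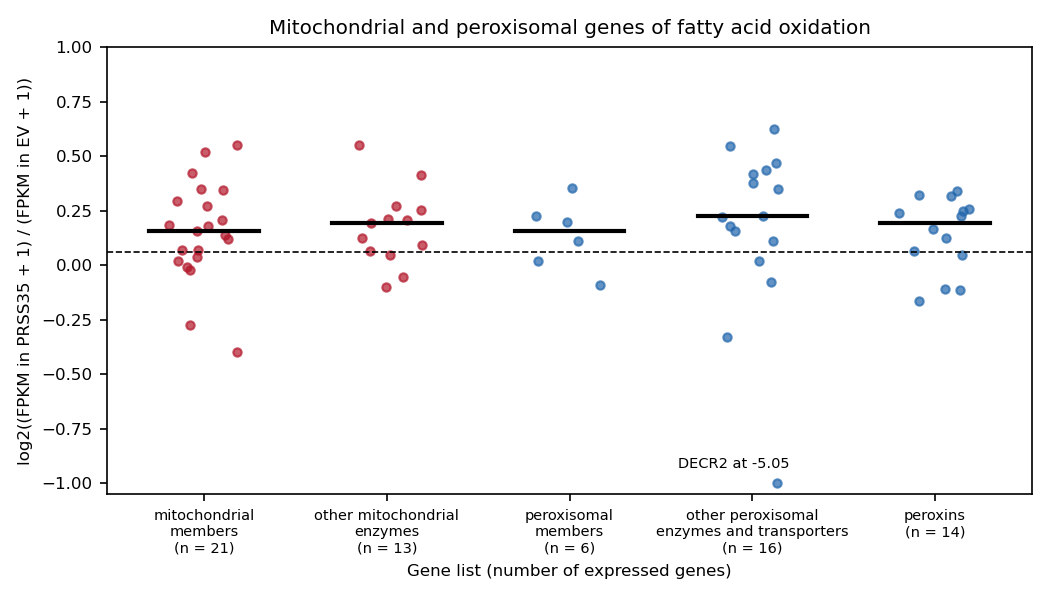
Log2 change of the expressed mitochondrial (red) and peroxisomal (blue) genes, 1 point per gene, with the median of each list as a bar and the median of all expressed genes (0.06) as a dashed line. The medians of the 5 lists lie between 0.15 and 0.22, and DECR2 at -5.05 is drawn at the lower edge.

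Over all 71 companion genes, 60 were expressed, with a median of 0.20. Of these, 4 were 2-fold higher and 2 were 2-fold lower in PRSS35, against 2.73% and 2.48% of all expressed genes. The counts include ESRRA and ANGPTL4, listed at 0 in EV, and DECR2, whose locus differed between the libraries. SLC27A5, a bile acid and very long chain acyl-CoA synthetase of liver, had 13.8 FPKM in EV (interval 12.7 to 14.9) and 39.5 FPKM in PRSS35 (interval 35.7 to 43.3), a change of 1.45. CPT1C, given above, was another. ESRRA, a nuclear receptor that drives mitochondrial genes, was listed at 0 in EV and had 84.2 FPKM in PRSS35, and ANGPTL4, a lipase inhibitor and PPAR target, was listed at 0 in EV and had 37.3 FPKM in PRSS35. No fold is given against a listed 0, which can be a failed estimate. The lower genes were PRKAA2, a catalytic subunit of AMP-activated kinase, with 2.45 FPKM in EV and 0.629 FPKM in PRSS35, and DECR2, the peroxisomal dienoyl-CoA reductase. PRKAA2 was newly assembled in EV only. Of the 1089 expressed genes of this kind, 91 were 2-fold lower and 6 higher, and the part of the assembly in its difference was not tested. The EV value of DECR2, 871.5 FPKM, belongs to a locus joined with NME4 and others that was not joined in PRSS35, where DECR2 had 25.3 FPKM, so the values do not measure the same thing.

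The medians held where the kind of transcript model was kept. The 25 expressed members that were annotated in both libraries or newly assembled in both had a median change of 0.18, with 9 higher and 2 lower by intervals. For the 8873 expressed genes of this kind, the median was 0.06, and 24.5% were higher and 15.9% lower. For the 9 expressed members with annotated models in both, the median was 0.18, with SLC25A20, HADH and ACAD9 higher and 0 lower. Over 2382 such genes the median was 0.08, and 23.5% were higher and only 6.84% lower. With each FPKM divided by the library's summed FPKM, the median change over the expressed genes was 0.67 in place of 0.06. On that scale the median of the members was 0.82 and 7 of them passed 2-fold. As the all-gene median was itself 0.67, this count is no result about the members. The share of all expressed genes past 2-fold on that scale is not given here. The members that were lower as deposited then stood above 0 but under the all-gene median of 0.67, at 0.08 for ACSL3, 0.24 for CPT1B and 0.41 for ACADS.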

How the data were processed

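The authors sequenced total RNA of EV and PRSS35 cells, 1 library each, on a HiSeq2500. Reads were aligned to hg19 with TopHat2 (version 2.1.0 in the submitters' processing notes, which also list dm6), and transcripts were assembled and quantified with the Cufflinks suite (2.2.1, named there as Cuffdiff). The annotation release and options are not given in the sources used here. The deposited values are FPKM per locus, with lower and upper bounds. No counts were used.

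FPKM was summed over loci sharing a name, joined names were split, and 1 locus with status FAIL in each library was left out. Genes with a mean of at least 1 FPKM were called expressed. A pseudocount of 1 FPKM and a 2-fold threshold were used. A locus is called annotated or newly assembled by its identifier. The half-width of a log2 change joins the bounds of both libraries. The calculation was tested on simulated data. The implied fragments per expressed member, BDH1 left out, ran from 52.7 to 8229, a measure of precision rather than of depth, and total depth is unknown.

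The members and lists were chosen with earlier results of these data known. All members are named, with the companions OXCT1, PPARA and CPT1C and any companion past 2-fold. Other companions that the rule names are not reported here. The alternatives tried were a pseudocount of 0.1 or 5 FPKM, division by the FPKM sum, scaling by the median change or the upper quartile, the highest locus per name, single-name loci, no filter or a mean of at least 5 FPKM, a 1.5-fold threshold, annotated loci, genes above 0 in both libraries and other divisions of the compartments. Genes with the same kind of identifier, and the counts by intervals under the scalings, no filter, a mean of at least 5 FPKM and genes above 0 in both libraries, were added after the data had been seen. Python 3.11.15, numpy 2.4.6, pandas 2.3.3 and matplotlib 3.10.9 were used.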

Additional observations from a re-analysis of the deposited data

How the results depend on the processing

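No paired analysis was possible because EV and PRSS35 cells gave 1 library each, and for the same reason no library could be left out. Scaling FPKM by its sum in each library moved the median log2 change of the members to 0.82, of the mitochondrial members to 0.83 and of the peroxisomal members to 0.77, with 7 members 2-fold higher, 29 higher and 0 lower by intervals, and 14 companions 2-fold higher and 1 lower. On that scale the median of all expressed genes was 0.67, and 86.9% of them lay higher and 2.50% lower by intervals. Their share past 2-fold is not given here, so the 2-fold counts on that scale are no result about members or companions. The FPKM sum itself was 1.64 times higher in EV. With loci annotated in both libraries, 3 members were higher and 0 lower by intervals, against 23.5% and 6.84% of all such genes. On these loci 0 companions passed 2-fold in either direction. Every companion past 2-fold as deposited lay on a locus newly assembled in 1 or both libraries. Of the 2382 expressed genes annotated in both, 17 were 2-fold higher and 15 lower. With genes above 0 in both, 2 companions were 2-fold higher. A pseudocount of 5 FPKM, a mean of at least 5 FPKM, single-name loci or the same kind of identifier each left 1 companion 2-fold lower. The difference between mitochondrial and peroxisomal medians ran from -0.04 to 0.06 over the settings, and 3 members near 0 (CPT2, ACADSB and SCP2) changed sign on centring or upper-quartile scaling, and the 6 members below 0 did so under the FPKM sum. Intervals cover error within a library, so variation between cultures was not measured.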
